A study of Xenopus laevis with 4 samples.

Results

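The proton pump, the sodium pump and the carbonic anhydrases were followed in animal caps of the frog Xenopus laevis. An animal cap is prospective ectoderm, and left in culture it makes a mucociliary skin. Members were the probe sets with 1 platform gene symbol that begins, without its L or S suffix, with atp6v, atp6ap, atp1a, atp1b, atp4 or atp12a, or that reads ca followed by digits and at most a letter. There were 63 such probe sets for 46 of 11303 gene symbols, of 15495 probe sets with 1 symbol and 32539 non-control probe sets on the Affymetrix array. Many genes of this species, whose genome was doubled by hybridisation, have an L and an S copy, called homeologs, as their suffixes show. No symbol beginning with atp1a was among the annotated probe sets used, so the catalytic alpha subunit of the sodium pump was not analysed here.

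The caps came from embryos that received synthetic RNA at the 2-cell stage, were explanted onto fibronectin and were harvested at the equivalent of stage 12. ICD RNA was on 2 arrays, DBM RNA on 1 and HMM RNA on 1. All groups therefore share injection and culture, and no array of uninjected caps was analysed here. By common usage ICD stands for the Notch intracellular domain, an active form of the receptor, and DBM for a form of the effector rbpj that cannot bind DNA and blocks signalling. The labels give HMM without its full name. No clutch or batch is stated, nor whether the ICD arrays hold RNA of different clutches, so the limma p-values reflect the spread among these arrays alone, and that spread may be technical.

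The V-type ATPase is a rotary proton pump. Its cytosolic V1 sector hydrolyses ATP and its membrane V0 sector carries the protons. Every cell uses it to acidify lysosomes and secretory vesicles, and ionocytes of the frog epidermis, like intercalated cells of the mammalian kidney, also place it in the plasma membrane to move acid across an epithelium. Carbonic anhydrases interconvert carbon dioxide and water with bicarbonate and protons, the ions that such cells transport, and the sodium pump sets the sodium and potassium gradients that drive other transporters. Several subunits of the proton pump have an isoform used in most cells and another that mammals restrict to a few epithelia such as the kidney collecting duct and the epididymis.

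ICD replicate 1 was dim as deposited, with a trimmed mean signal of 151 on that array and 377 on ICD replicate 2, against 409 on DBM and 382 on HMM. Each array was therefore rescaled to the common trimmed mean, and all signals below are rescaled MAS5 signals, linear intensities. They compare 1 probe set between arrays, and are not comparable between probe sets. The 6 probe sets kept for hes5.1, hes5.2, hey1 and nrarp, genes that Notch activates, all rose, and their summed signal was 45791 and 37533 with ICD against 3064 with DBM and 1663 with HMM. Of 9 ectoderm marker symbols 1, dlx5.L, rose and 8 did not pass, among them the copies of tfap2a and dlx3 with differences of 0.10 to 0.26 on the log2 scale. cdh1.S, also not passed, differed widely within the ICD pair, at 2148 and 74.2 with ICD, against 91.5 with DBM and 1246 with HMM. The ectoderm sum, 53170 and 39366 with ICD against 32625 with DBM and 31870 with HMM, is led by epcam.L and epcam.S. A sum over a list weights its brightest probe sets most. Endoderm markers summed to 385 and 352 with ICD against 1405 with DBM and 1415 with HMM, and mesoderm markers to 155 and 370 with ICD against 522 with DBM and 271 with HMM, with no marker of these lists listed at 0. Of 7 tested endoderm markers 4 fell (gata4.S, gata5.S, gata6.S and hhex.L) and 3 did not pass, beside 2.04% that fell over all probe sets tested. Both ICD signals of gata6.S and hhex.L lay under the filter level of 41.4 given below. These markers therefore passed the filter only through DBM and HMM. Of 3 tested mesoderm markers 0 passed.

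Of the 63 probe sets, 44, for 30 symbols, passed the filter on dim probe sets, a mean rescaled signal over all arrays of at least 41.4, and entered the test. The other 19 are described by their signals. Against the mean of DBM and HMM, 4 of the 44 fell with ICD and 1 rose at an adjusted p of 0.05 (limma with Benjamini-Hochberg adjustment over 19523 probe sets), while 39 did not pass. Over all probe sets tested, 2.04% fell and 1.9% rose, 3.93% together. The 4 that fell belong to 3 genes: ca12.L with 2 probe sets, atp6v1g3.L and atp6v1b1.L. All but Xl2.10362.1.A1_at of ca12.L passed the filter only through DBM and HMM, where they are high, so the share that fell depends on the filter. Without the filter, 3 of 63 fell and 1 rose, beside 1.59% that passed in either direction over all probe sets. The 1 that rose was a probe set of atp6v1f.L. The median log2 difference of the 44 was -0.26 beside -0.01 over all probe sets tested, and it was also -0.26 for all 63 in a fit without the filter, beside 0.01 over all probe sets there.

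**Figure D1:**
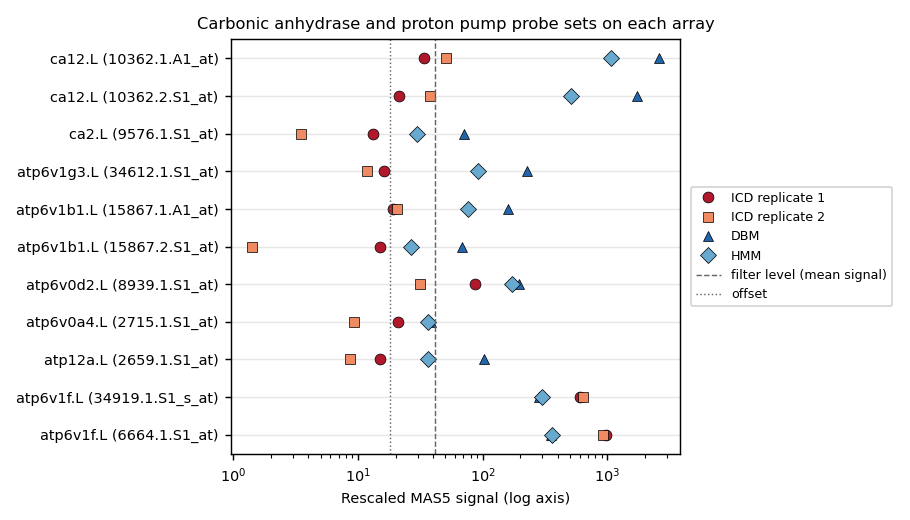
Rescaled MAS5 signal (horizontal log axis) of 11 probe sets of carbonic anhydrase and proton pump genes, 1 symbol per array, with the filter level and the offset as vertical lines. Both ICD arrays lie below DBM and HMM for all of them except the atp6v1f.L probe sets, where both lie above. These 11 were picked for display. Of all 63 probe sets, 28 had both ICD arrays below, 13 both above and 22 overlap. Over the 19523 probe sets tested, 22.8% had both ICD arrays below and 19.3% both above. Among the 44 tested members the shares were 50% and 15.9%. No such share was taken over the probe sets under the filter.

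Among the carbonic anhydrases, ca12.L had the largest difference. ca12 encodes a transmembrane enzyme whose active site faces outside the cell. Its probe set Xl2.10362.1.A1_at stood at 33.7 and 51.0 with ICD, against 2619.6 with DBM and 1062 with HMM. Both ICD arrays were thus far below the other arrays and close to the filter level, and DBM was above HMM. The log2 difference was -4.82 ± 0.28 (SE), a 28.3-fold lower value with ICD on the scale of signal plus an offset of 18.0 (limma adjusted p = 7.56e-04). With ICD signals this low the size depends on the offset, and it was -5.21 with a smaller offset and -3.94 with a larger one. The second probe set of the gene, Xl2.10362.2.S1_at, gave 21.2 and 38.1 with ICD, against 1736 with DBM and 512 with HMM, and a log2 difference of -4.36 ± 0.32 (SE, limma adjusted p = 1.39e-03). Both ICD signals of that probe set lay under the filter level, so it passed the filter only through DBM and HMM, and its difference was -4.88 with the smaller offset and -3.34 with the larger one. Both probe sets read the same RNA and are no replicates of each other. In these bulk samples fewer cells of a type and less RNA per cell cannot be told apart.

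The other carbonic anhydrases did not pass. ca5b.L, the copy annotated for the mitochondrial enzyme, gave 768 and 1232 with ICD, against 2074 with DBM and 1462 with HMM, so its groups did not overlap, but the difference of -0.83 ± 0.27 (SE) on the log2 scale had a limma adjusted p of 0.204. ca10.L belongs to the carbonic anhydrase-related proteins, which lack catalytic activity. Its signals of 927 and 659 with ICD overlapped those of 552 with DBM and 791 with HMM, with a log2 difference of 0.24 ± 0.25 (SE, limma adjusted p = 0.846).

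The remaining 5 carbonic anhydrase probe sets were under the filter. ca2.L, annotated for the widespread cytosolic enzyme, stood at 13.1 and 3.50 with ICD, against 70.5 with DBM and 29.9 with HMM. Of its signals only that of DBM was above the filter level, and in the fit without the filter its difference of -1.33 ± 0.32 (SE) had a limma adjusted p of 0.135. Its other copy ca2.S lay at 16.4 and 12.1 with ICD, against 11.8 with DBM and 7.68 with HMM, all under the filter level. ca14.L, which encodes another transmembrane enzyme, had both ICD arrays above the others, at 29.7 and 56.3 against 20.6 with DBM and 16.0 with HMM. It had 1 array above the filter level and an adjusted p of 0.582 without the filter. ca13.L and ca6.L stayed under 15 on every array.

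In the V1 sector, 2 of 19 tested probe sets fell, 1 rose and 16 did not pass. For comparison, 2.04% of the 19523 probe sets in the test fell and 1.9% rose. The median difference of the 19 was -0.26. atp6v1g3.L is the copy annotated for the stalk subunit isoform that mammals make mainly in the kidney. It stood at 16.2 and 11.8 with ICD, against 227 with DBM and 92.1 with HMM. Both ICD signals lay under the filter level and under the offset, and the DBM array was the highest. The log2 difference was -2.36 ± 0.32 (SE, limma adjusted p = 0.0129), a 5.15-fold lower value with ICD on the scale of signal plus offset. The probe set passed the filter only through the DBM and HMM arrays. With a smaller offset the difference was -3.09 and with a larger one -1.37.

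atp6v1b1.L encodes the isoform of the nucleotide-binding B subunit whose loss in humans causes distal renal tubular acidosis with deafness. Its probe set Xl2.15867.1.A1_at stood at 19.0 and 20.6 with ICD, against 159 with DBM and 75.7 with HMM. The ICD arrays agree closely at a level near the offset, and DBM was again the highest. The log2 difference was -1.77 ± 0.32 (SE, limma adjusted p = 0.0333), and this probe set also passed the filter only through DBM and HMM. Its difference was -2.28 with the smaller offset and -1.01 with the larger one. Without the filter its limma adjusted p was 0.0557. The second probe set, Xl2.15867.2.S1_at, was under the filter at 15.1 and 1.40 with ICD, against 67.6 with DBM and 26.6 with HMM, with the same order of groups.

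atp6v1f.L encodes a subunit of the central rotor shaft and went the other way. Its probe set Xl2.6664.1.S1_at stood at 978 and 931 with ICD, against 354 with DBM and 358 with HMM. All 4 signals were far above the filter level, and DBM and HMM were alike. The log2 difference was 1.38 ± 0.22 (SE), a 2.6-fold higher value with ICD on the scale of signal plus offset (limma adjusted p = 0.0209). In a fit without the intensity trend of the variance it did not pass (limma adjusted p = 0.0618). The other probe set of the gene, Xl2.34919.1.S1_s_at, gave 599 and 637 with ICD, against 283 with DBM and 300.5 with HMM, a difference of 1.04 ± 0.23 (SE) that did not pass (limma adjusted p = 0.0661). The homeolog atp6v1f.S lay between 18.8 and 20.8 on all arrays, at the level of the offset.

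Smaller differences than at atp6v1f.L were found for the remaining V1 probe sets, for subunits that every cell uses. They were those of atp6v1a.L and atp6v1al.L (the catalytic subunit), atp6v1b2.S (the widespread B isoform), atp6v1c1.L, atp6v1e1.L, atp6v1g1.S and atp6v1h.L (stalks and their regulators) and both copies of atp6v1d (rotor shaft). Their log2 differences ran between -0.70, that of atp6v1d.S, and 0.18, and 0 of them passed. atp6v1b2.S, the partner isoform of atp6v1b1, gave 2953 and 3137 with ICD on its probe set Xl2.8880.1.S1_a_at, against 4300.3 with DBM and 4126 with HMM, a difference of -0.47 ± 0.23 (SE, limma adjusted p = 0.466). Both ICD arrays were below the others here too, by a small amount. atp6v1g1.S, the partner of atp6v1g3, had 3 probe sets at -0.27, -0.21 and 0.18, with limma adjusted p of 0.768 or more.

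**Figure D2:**
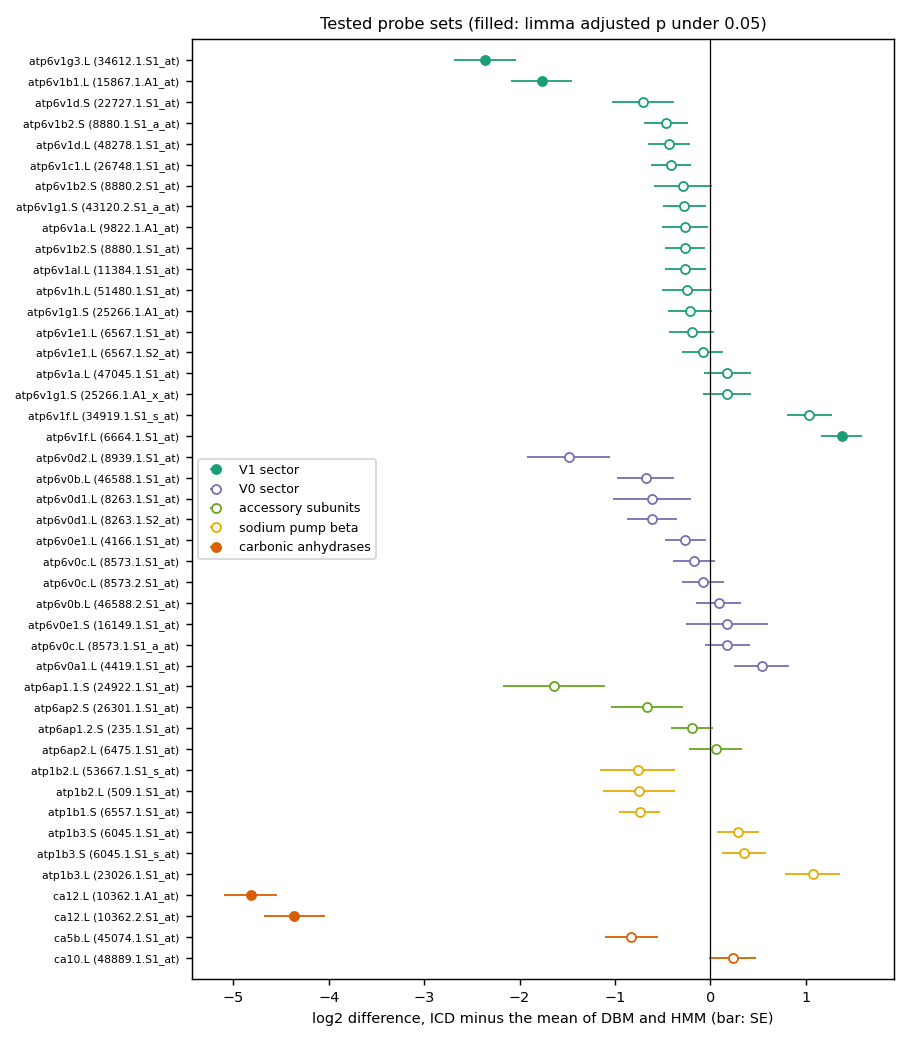
Log2 difference of ICD minus the mean of DBM and HMM with its standard error for the 44 tested probe sets, by subunit group, with filled points for a limma adjusted p under 0.05. The ca12.L probe sets at -4.82 and -4.36 and those of atp6v1g3.L and atp6v1b1.L lie at the low end of their groups, and atp6v1f.L at 1.38 is the filled point above 0.

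In the V0 sector 0 of 11 tested probe sets passed the limma test, and 1, that of atp6v0d2.L, had an unadjusted p under 0.05. Over all probe sets tested, 2761 of 19523 had an unadjusted limma p under 0.05 in this comparison. The median difference of the 11 was -0.17. atp6v0d2.L is the copy annotated for the d subunit isoform that mammals make in kidney, osteoclasts and a few other tissues. It stood at 86.4 and 31.4 with ICD, against 195 with DBM and 172 with HMM. ICD replicate 2 minus replicate 1 was -1.08 on the log2 scale, and the difference of -1.49 ± 0.43 (SE) had a limma adjusted p of 0.145. atp6v0d1.L, the widespread d isoform, gave 461 and 701 with ICD on its brighter probe set, against 1068 with DBM and 721 with HMM (-0.61 ± 0.26 SE, limma adjusted p = 0.372).

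The a subunit carries the channels through which protons enter and leave the ring. atp6v0a4.L, the kidney-type isoform, was under the filter on every array, at 20.8 and 9.27 with ICD, against 38.6 with DBM and 36.8 with HMM. atp6v0a1.L, a widespread isoform, had both ICD arrays above the others, at 314 and 246 with ICD, against 194 with DBM and 178 with HMM (0.54 ± 0.29 SE, limma adjusted p = 0.513). The proteolipid ring gene atp6v0c.L had 3 bright probe sets, from 1905 to 3777 over all arrays, with differences of -0.17, -0.08 and 0.18. atp6v0e1.L gave -0.26 and its homeolog atp6v0e1.S 0.17. The probe sets of atp6v0b.L, a second ring subunit, differed from each other in sign, at -0.68 and 0.09.

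Set side by side, the 5 probe sets of the restricted isoforms atp6v1b1.L, atp6v1g3.L, atp6v0a4.L and atp6v0d2.L all had both ICD arrays below DBM and HMM. Their differences in the fit without the filter ran from -2.36 to -0.78. The 9 probe sets of their widespread partners atp6v1b2.S, atp6v1g1.S, atp6v0a1.L and atp6v0d1.L had 4 with both ICD arrays below, 1 with both above and 4 with overlap, and their differences ran from -0.62 to 0.54. Over all 19523 probe sets tested, 22.8% had both ICD arrays below DBM and HMM and 19.3% had both above. Among the 44 tested members these shares were 50% and 15.9%, so both ICD arrays lying below was common among the members as a whole. Of the restricted isoforms, the probe set of atp6v0a4.L and the second of atp6v1b1.L were under the filter and are outside these shares. The isoforms were set against each other as descriptions, and no test of the difference between them was made.

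The accessory subunits, which guide assembly and trafficking of the pump, gave 0 of 4 past the limma test. An unadjusted p under 0.05 was found for 1 of the 4, beside 2761 of 19523 over all probe sets tested. atp6ap2.L, also called the prorenin receptor, had overlapping signals of 2531 and 1607 with ICD, against 1889.8 with DBM and 1989.5 with HMM. Its homeolog atp6ap2.S gave 151 and 78.3 with ICD, against 166 with DBM and 204 with HMM. atp6ap1.1.S stood at 55.1 and 6.56 with ICD, against 90.2 with DBM and 143 with HMM. On that probe set ICD replicate 2 minus replicate 1 was -1.57 on the log2 scale, and its difference of -1.64 ± 0.53 (SE) had a limma adjusted p of 0.196. atp6ap1.2.S gave -0.19 and both probe sets of atp6ap1.1.L were under the filter.

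Of the 9 probe sets for beta subunits of the sodium pump, which carry the catalytic subunit to the membrane, 6 were tested. Of these 0 passed the limma test and 2 had an unadjusted p under 0.05, in opposite directions. Over all probe sets tested, 2761 of 19523 had an unadjusted limma p under 0.05. atp1b3.L had both ICD arrays above the others, at 520.3 and 815 with ICD, against 287 with DBM and 314 with HMM (1.07 ± 0.29 SE, limma adjusted p = 0.113). Its homeolog atp1b3.S lay in the same order on both tested probe sets, with smaller differences of 0.29 and 0.35. atp1b1.S had both ICD arrays below the others, at 498 and 537 with ICD, against 1029 with DBM and 743 with HMM (-0.74 ± 0.21 SE, limma adjusted p = 0.144).

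atp1b2.L differed more between arrays of the same group or between DBM and HMM than between ICD and the rest. Its probe set Xl2.509.1.S1_at gave 738 and 1681 with ICD, against 3167 with DBM and 1110.2 with HMM. The HMM array lay between the ICD arrays, and DBM stood above all others. The second probe set, Xl2.53667.1.S1_s_at, had the same order, at 376 and 909 with ICD, against 1594 with DBM and 635 with HMM. atp1b2.S stayed between 33.0 and 37.7 and atp1b4.L between 14.4 and 20.5 on all arrays.

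The proton-potassium pumps exchange protons for potassium in the stomach and other epithelia. All 5 of their probe sets were under the filter. atp12a.L, the non-gastric catalytic subunit, was the one with an array above the filter level, at 15.1 and 8.57 with ICD, against 102 with DBM and 36.5 with HMM (-1.45 ± 0.31 SE in the fit without the filter, limma adjusted p = 0.101). Its homeolog atp12a.S stayed between 9.49 and 14.9, and atp4a.S and both copies of atp4b were under 13 on every array.

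Set against DBM and against HMM alone, 4 of the 44 tested probe sets fell in ICD against DBM, where 1.48% of all probe sets fell, 0.84% rose and 2.32% passed in either direction, and 2 fell in ICD against HMM, where 0.507% fell, 1.23% rose and 1.74% passed. The probe sets that fell, other than Xl2.10362.1.A1_at of ca12.L, passed the filter only through DBM and HMM. The comparisons share the ICD arrays, and each sets them against 1 array whose spread is taken from the ICD pair. The ca12.L probe sets passed in each, with -5.47 ± 0.34 and -5.23 ± 0.39 (SE) against DBM and -4.18 ± 0.34 and -3.50 ± 0.39 against HMM. atp6v1g3.L passed against DBM at -2.94 ± 0.40 (SE, limma adjusted p = 0.0204), beside -1.79 ± 0.40 (0.0969) against HMM. atp6v1b1.L passed against DBM at -2.23 ± 0.39 (SE, limma adjusted p = 0.0423), beside -1.31 ± 0.39 (0.207) against HMM, and its call against DBM was lost with the smaller offset and without the filter. atp6v1f.L had nearly the same size in each, at 1.38 against DBM (limma adjusted p = 0.0548) and 1.37 against HMM (0.0640). Whether the 2 differences of a gene are unlike was not tested, since DBM and HMM have 1 array each.

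The DBM and HMM arrays themselves differed for the genes that fell. DBM stood above HMM by 1.29 and 1.73 on the log2 scale for the ca12.L probe sets, by 1.15 for atp6v1g3.L and by 0.91 for atp6v1b1.L. The dim atp12a.L and ca2.L had values of 1.14 and 0.89, while atp6v0d2.L and atp6v0a4.L had 0.17 and 0.05. Of the 44 tested probe sets, 5 were at least 1 log2 unit higher with DBM, beside 3.86% of all probe sets, and they were those of ca12.L, atp6v1g3.L and atp1b2.L. The share at least 1 unit lower with DBM was 2.88% over all probe sets, and 0 of the 44 members. Of the members under the filter, 1 was at least 1 unit lower with DBM. That was atp6v0e2.S, at -2.26. The summed signal of the 10 ionocyte markers, 4 of which (ca12.L, atp6v1b1.L, atp6v1g3.L and atp6v0d2.L) are members, lay in the same order, at 530.1 and 478 with ICD, against 9801 with DBM and 5926 with HMM. That of the 12 multiciliate markers was 1743 and 1893 with ICD, against 20819 with DBM and 10338 with HMM. This order was not particular to these lists. Goblet and outer layer markers summed to 24589 and 19074 with ICD, against 43051 with DBM and 31359 with HMM. Of these 8 markers, all tested, 4 fell, 2 (krt19.L and krt19.S) rose and 2 did not pass. The shares over all probe sets tested were 2.04% that fell and 1.9% that rose. For small secretory and basal markers DBM was also above HMM, but ICD was not lowest. Small secretory markers summed to 3553 and 4802 with ICD, against 4206 with DBM and 1958 with HMM, a sum led by agr2.S. Of 4 tested, foxa2.L rose, agr2.L fell and 2 did not pass, beside the shares just given. foxa2.L passed the filter only through the ICD arrays. Basal markers summed to 2714 and 2985 with ICD, against 1333 with DBM and 864 with HMM. Of 3 tested, tp63.S and vim.L rose and 1 did not pass, beside the same shares over all probe sets. DBM was above HMM for the ectoderm, mesoderm and Notch response sums above too, but not for endoderm. Of the ionocyte markers 8 were tested and 6 fell, and of the multiciliate markers 11 were tested and 10 fell. Over all probe sets tested, 2.04% fell. The calls of ca12.L, atp6v1g3.L and atp6v1b1.L in the ionocyte list are the members' own, given above. Of the other markers, ubp1.L, mcidas.S, cfap52.S and tekt2.S passed the filter only through DBM and HMM. No ionocyte or multiciliate marker was listed at 0, and the part of these cell types in the result was not tested. With 1 array on each side this comparison has no replicate check.

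**Figure D3:**
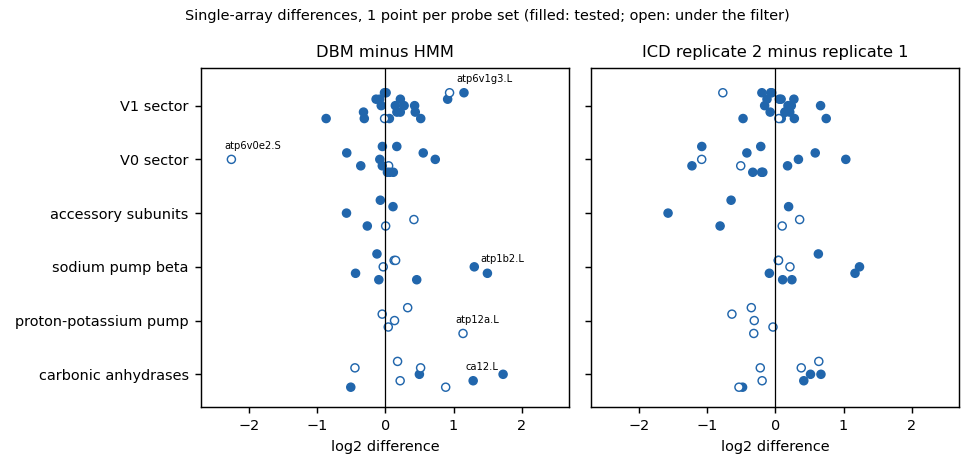
Log2 difference of DBM minus HMM (left) and of ICD replicate 2 minus replicate 1 (right) for all 63 probe sets by group, with open points for those under the filter and names for genes at least 1 unit apart on the left. The ca12.L, atp6v1g3.L, atp1b2.L and atp12a.L points lie above 1 on the left, and the open point of atp6v0e2.S lies at -2.26. The right panel shows that single arrays of the same group can lie over 1 unit apart as well.

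Probe sets of 1 gene were compared with each other. Of 13 genes with more than 1 probe set, 11 had at least 2 tested, and the gap between their lowest and highest difference had a median of 0.34 on the log2 scale. The largest gap was 0.77, for atp6v0b.L, and the probe sets of atp6v0b.L, atp6v0c.L, atp6v1a.L and atp6v1g1.S also differed in sign. The ICD arrays differed by a median of 0.26 over the 44 tested members and 0.29 over all probe sets tested.

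Genes listed for ionocytes or as partners of the pumps were taken from 3 further lists, with the brightest probe set for each symbol. The first of these lists shares symbols with the ionocyte markers above. These lists were chosen with earlier results of these data known. Of 18 symbols found for ionocyte regulators and partner transporters, 10 were tested, 5 fell and 5 did not pass, with a median of -1.34. Over all probe sets tested 2.04% fell, and the median was -0.01. The 5 that fell were foxi1.L, ubp1.L, tfcp2l1.S and both copies of gadd45g. foxi1.L, ubp1.L and tfcp2l1.S are the same probe sets already counted among the ionocyte markers above, so their calls here are no further ones. gadd45g is not one of those markers, and whether it acts in ionocytes was not tested. gadd45g.S (limma adjusted p = 0.0337) did not pass without the filter (0.0584), without the trend (0.0733) or with DBM and HMM pooled (0.109). foxi1.L, the forkhead regulator of ionocytes, stood at 112 and 116 with ICD, against 4523 with DBM and 2736 with HMM. ubp1.L, a grainyhead-family factor of the ionocyte program, stood at 15.7 and 35.3 with ICD, against 991 with DBM and 962 with HMM, so that here the DBM and HMM arrays were alike. Both ICD signals of ubp1.L lay under the filter level, so it passed the filter only through DBM and HMM. Its log2 difference of -4.55 ran from -5.16 to -3.43 over the 12 processing alternatives. Of the partner transporters, slc4a1.L, the anion exchanger of ionocytes, was under the filter at 24.9 and 29.0 with ICD, against 43.3 with DBM and 25.0 with HMM. slc12a2.L and slc26a6 did not pass, at 0.11 and 0.56. Among the regulators, tfcp2l1.L (-1.09 ± 0.30 SE, limma adjusted p = 0.125) and both copies of foxi2 (0.07 for L and -0.05 for S) did not pass either.

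Of 11 symbols found for regulators of the sodium pump, 6 were tested and 1 fell, beside 2.04% that fell over all probe sets tested. The 1 that fell was sgk1.L, the copy annotated for a kinase that raises sodium transport in response to corticosteroids. It stood at 55.8 and 46.8 with ICD, against 507 with DBM and 578 with HMM. DBM and HMM were alike, and the log2 difference was -3.02 ± 0.30 (SE, limma adjusted p = 4.39e-03). Its homeolog sgk1.S lay in the same order at 27.6 and 24.1 with ICD, against 103 with DBM and 104 with HMM, and did not pass (-1.47 ± 0.32 SE, limma adjusted p = 0.0624). Both ICD signals of sgk1.S lay under the filter level, so it passed the filter only through DBM and HMM.

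Of 7 symbols found for assembly and regulation of the proton pump, 5 were tested and 1 rose. Over all probe sets tested 1.9% rose. The 1 that rose was oxr1.L, a gene of the TLDc family, whose members bind the V1 sector. It stood at 1867 and 1394 with ICD, against 214 with DBM and 402 with HMM, a log2 difference of 2.39 ± 0.24 (SE, limma adjusted p = 4.87e-03). Its homeolog oxr1.S was under the filter with overlapping signals, at 22.7 and 31.1 with ICD, against 34.7 with DBM and 22.8 with HMM. vma21.L, an assembly factor of the V0 sector, gave 1571 and 1616 with ICD, against 1796 with DBM and 1792 with HMM, and rogdi.L 841 and 779 with ICD, against 627 with DBM and 793 with HMM, and neither passed.

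**Figure D4:**
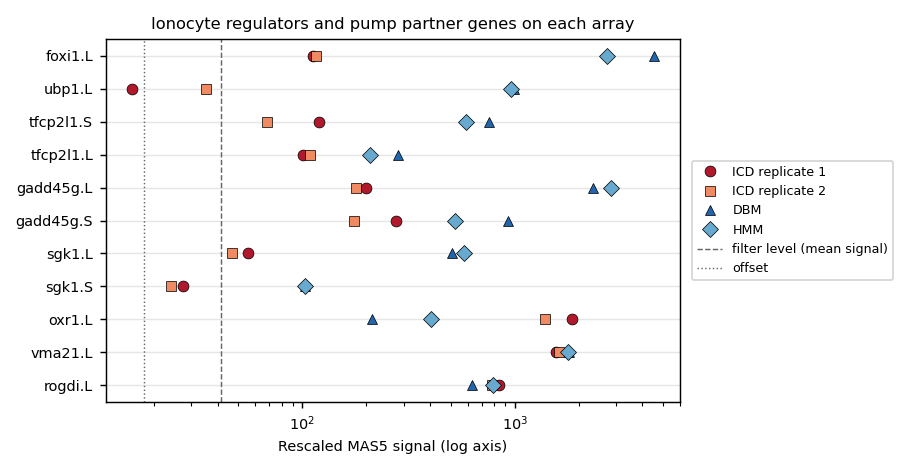
Rescaled MAS5 signal (horizontal log axis) of genes from the ionocyte list, sgk1 copies and proton pump partner genes, 1 symbol per array, with the filter level and the offset as vertical lines. The ICD arrays lie below DBM and HMM for foxi1.L through sgk1.S, above them for oxr1.L, and close to them for vma21.L and rogdi.L.

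The calls rested on few arrays. In 4 fits 1 array was left out, and where that was an ICD array, DBM and HMM had to be pooled. ca12.L kept at least 1 probe set past the threshold each time. atp6v1g3.L and atp6v1b1.L passed without HMM (adjusted p = 0.0193 and 0.0379) but not without DBM (0.0935 and 0.210) or without either ICD array (0.140 to 0.241). atp6v1f.L passed in none of these 4 fits, with adjusted p from 0.0533 to 0.175 and a difference between 1.34 and 1.41. Among these 4 fits sgk1.L was lost only without ICD replicate 2 (0.0555), and oxr1.L without either ICD array (0.112 and 0.101). Of the 5 symbols of the ionocyte list that fell, gadd45g.S was lost without DBM and without either ICD array, and tfcp2l1.S without ICD replicate 2. Over the 12 processing alternatives the log2 difference ran from -1.99 to -1.17 for gadd45g.S and from -2.99 to -2.17 for tfcp2l1.S.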

How the data were processed

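Expression was measured on 4 Affymetrix arrays (ICD 2, DBM 1, HMM 1). Per the submitters' processing notes the authors computed MAS5 values, and the deposited numbers behave as signals, or intensity, that are linear and not logged. The MAS5 version is not given in the sources used here. Probe sets were named from the platform's annotation, and the symbols of all 63 members were the same in the RefSeq gene table by Entrez identifier. Probe sets whose names end in s_at or x_at can read several transcripts, and any probe set may read both homeologs, so copies are named as annotated.

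Each array was rescaled to the common mean trimmed by 2% at each end. Values were tested as log2(signal + 17.99), an offset of 0.25 times the median, which understates changes of dim genes. Probe sets under the 40th percentile of the mean rescaled signal were left out. Limma 3.58.1 in R 4.3.3 fitted 1 mean for each RNA over 19523 probe sets with eBayes and a trend on intensity. Tests were two-sided and p-values were adjusted by Benjamini-Hochberg. The fit has 1 residual and 5.82 prior degrees of freedom, so the spread of the ICD pair stands in for that of the single DBM and HMM arrays. The number of arrays limits the precision. The code was tested on simulated data. Any member could be named, and from the other lists those past the threshold and at most 8 others. The members and lists were chosen with earlier results of these data known. Figures used matplotlib 3.10.9 in Python 3.11.15.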

Additional observations from a re-analysis of the deposited data

How the results depend on the processing

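Scaling, offset, filter, variance model and the arrays used were varied in 12 alternatives. No paired analysis was possible because the groups share only replicate number 1. Of the 5 probe sets past the threshold in ICD against DBM and HMM averaged, 3 remained with the filter at the 60th percentile, which removed the other 2 from the test, and 3 with DBM and HMM pooled, and leaving out an array gave 1 to 4. That filter and pooling both kept the ca12.L probe sets and atp6v1f.L. With pooling, atp6v1g3.L and atp6v1b1.L were tested but did not pass. The 60th percentile filter left 2 of 4 in ICD against DBM. On signals as deposited, with ICD replicate 1 dim, limma passed 0 members in each of the 3 comparisons and 0 of 19527 probe sets. There 132, 88 and 56 probe sets had an unadjusted p under 0.05, of which 3, 3 and 2 were members, in ICD against the average, DBM and HMM. The median of all probe sets was -0.67 against the average there, and single differences are given relative to it. Over all probe sets, pooling gave 411 calls in place of 768, and leaving out an array 62 to 427. Without the filter there were 220 calls against DBM in place of 452 and 224 against HMM in place of 340, and without the trend 223 and 170. Of 608 single-gene values 38 lost their call and 16 changed sign, none of them from a call. On signals as deposited atp6ap2.L was at -0.0016. Leaving out arrays, values ranged from -0.27 to 0.38 for atp6ap2.L, -0.017 to 0.49 for ca10.L, -1.49 to 0.0060 for atp1b2.L, -0.19 to 0.37 for atp6v0b.L, -0.17 to 0.011 for atp6v0c.L, -0.44 to 0.79 for atp6v0e1.S, -0.26 to 0.61 for atp6v1a.L, -0.62 to 0.047 for atp6v1b2.S, -0.17 to 0.011 for atp6v1e1.L, and -0.43 to 0.0052 and -0.038 to 0.39 for 2 atp6v1g1.S probe sets. The ICD signals of atp6v1b1.L and atp6v1g3.L lie near the offset, which limits the size of their differences.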

Other observations

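The symbols ca4.1.S and ca4.2.L are carbonic anhydrases that the naming rule leaves out, and they were looked up after the members had been examined. ca4.1.S gave 33.2 and 21.3 with ICD, against 14.4 with DBM and 42.4 with HMM, and ca4.2.L 17.3 and 2.10 with ICD, against 12.7 with DBM and 9.84 with HMM, so both were under the filter. The V0 gene atp6v0e2.S had its highest signal on the HMM array, at 29.3 and 4.37 with ICD, against 7.66 with DBM and 105 with HMM, with a mean under the filter.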
